A study of Homo sapiens with 12 samples.

Results

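Metallothioneins are small cysteine-rich proteins that bind zinc and copper, and the 8 genes described here are 6 metallothionein genes (MT2A, MT1E, MT1F, MT1G, MT1M and MT1X), MTF1, the zinc-sensing transcription factor that induces metallothioneins, and SLC30A1 (ZnT1), the zinc exporter of the plasma membrane. They were taken by symbol from a table of 60641 symbols, and all 8 were found. Their RNA was measured by sequencing in SRA01/04 cells, an immortalised line derived from human lens epithelium, 24 hours after treatment. The 4 groups, of 3 libraries each, were untreated cells (NC), cells supplemented with asparagine (NC-A), cells treated with 1,2-DHN (DHN; 1,2-dihydroxynaphthalene, a metabolite of naphthalene that oxidises to a reactive quinone) and cells that received 1,2-DHN and asparagine (DHN-A). All groups are the same cell line, and doses and the order of the additions are not given in the sources used. Nor do the labels tie the 3 libraries of a group to different cultures, and the p-values therefore describe only how far these libraries spread, which may be technical.

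When cytosolic zinc rises, MTF1 binds short DNA motifs called metal response elements (MREs) and raises transcription of metallothioneins and of SLC30A1; the first bind the metal and the second exports it. Cadmium, copper, oxidants that release zinc from proteins, and glucocorticoids are also known inducers of metallothioneins. In the lens, metallothioneins are known as metal buffers of the epithelium and as part of its defence against oxidants.

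The metallothionein genes lie together on chromosome 16, where GENCODE release 29 (GRCh38) places 16 metallothionein genes and pseudogenes between 56565049 and 56684196. MT2A runs from 56608199 to 56609497, MT1E from 56625475 to 56627112 and MT1X from 56682424 to 56684196, all on the plus strand. MTF1 (37809567 to 37859620) and SLC30A1 (211571568 to 211578742) are on the minus strand of chromosome 1. Upstream sequences are shown because MT2A and SLC30A1, both known targets of MTF1, changed in opposite directions. RefSeq sequences (GRCh38.p14) were matched for 4 of the 8 genes. The 250 bases before the start are chr16:56608334-56608583 for MT2A and chr16:56682220-56682469 for MT1X, on the plus strand. They are chr1:211579162-211579411 for SLC30A1 and chr1:37859593-37859842 for MTF1, on the minus strand. These RefSeq starts are not the GENCODE gene ends given above. The MT2A window lies inside the GENCODE gene, and the SLC30A1 window lies wholly upstream of the GENCODE gene. The motif counts below hold for the RefSeq starts only, and windows at other starts were not searched. Capitals mark the MRE core, searched as TGCACNC and TGCGCNC on both strands.
MT2A: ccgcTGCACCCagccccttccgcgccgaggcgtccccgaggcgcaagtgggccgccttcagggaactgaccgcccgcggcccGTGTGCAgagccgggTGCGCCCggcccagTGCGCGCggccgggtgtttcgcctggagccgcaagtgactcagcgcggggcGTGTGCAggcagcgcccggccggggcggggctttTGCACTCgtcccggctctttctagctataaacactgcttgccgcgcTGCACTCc
MT1X: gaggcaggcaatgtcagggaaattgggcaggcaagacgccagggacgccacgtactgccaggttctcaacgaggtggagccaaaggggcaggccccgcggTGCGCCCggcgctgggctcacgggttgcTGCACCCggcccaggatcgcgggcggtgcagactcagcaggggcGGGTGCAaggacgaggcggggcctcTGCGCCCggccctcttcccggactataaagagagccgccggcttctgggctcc
SLC30A1: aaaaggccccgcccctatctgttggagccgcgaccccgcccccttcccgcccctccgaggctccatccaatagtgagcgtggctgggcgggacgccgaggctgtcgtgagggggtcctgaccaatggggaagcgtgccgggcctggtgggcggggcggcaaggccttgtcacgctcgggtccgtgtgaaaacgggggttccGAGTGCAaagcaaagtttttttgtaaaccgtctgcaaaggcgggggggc
MTF1: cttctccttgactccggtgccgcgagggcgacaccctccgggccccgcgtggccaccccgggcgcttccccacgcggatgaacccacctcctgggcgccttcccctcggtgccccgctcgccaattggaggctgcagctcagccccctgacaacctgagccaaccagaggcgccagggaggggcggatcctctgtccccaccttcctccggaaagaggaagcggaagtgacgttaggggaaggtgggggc
MT2A held 7 MRE cores, MT1X 4, SLC30A1 1 and MTF1 0 in this window. Of 35116 promoter windows of the same length, 24.8% held at least 1, 0.37% at least 4 and 0.0313% at least 7. A core of the antioxidant response element, the motif of the electrophile-responsive factor NRF2 (TGACNNNGC, both strands), was found once in each of MT2A, MT1X and SLC30A1 and in 10.9% of all windows; none of these shared a base with an MRE core. The windows were rich in G and C, at 73.2% in MT2A, 70.0% in MT1X, 66.4% in SLC30A1 and 70.0% in MTF1, against a median of 58.0% over all windows, and a match of letters is a description, not a bound site.

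**Figure D1:**
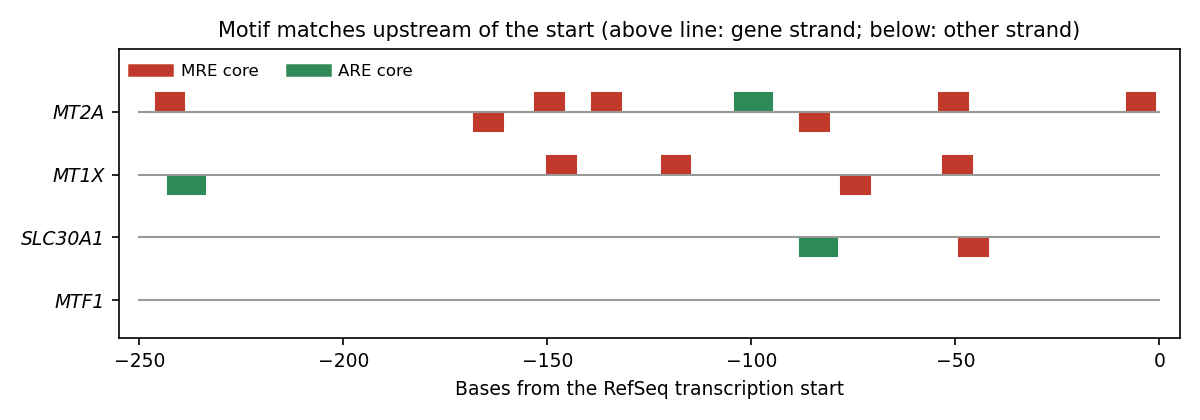
Positions of MRE core (red) and antioxidant response element core (green) matches in the 250 bases before the RefSeq start of 4 genes; the x axis is the distance in bases from the start, and boxes above or below a line are matches on the gene's strand or on the other strand. MT2A carries 7 MRE cores along the whole window, MT1X 4, SLC30A1 1 and MTF1 0.

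The coding sequence of MT2A shows what makes these proteins metal binders: capitals mark its 20 cysteine codons (TGC or TGT) among 61 codons. The sequence is the spliced coding sequence of the GENCODE release 29 transcript.
MT2A: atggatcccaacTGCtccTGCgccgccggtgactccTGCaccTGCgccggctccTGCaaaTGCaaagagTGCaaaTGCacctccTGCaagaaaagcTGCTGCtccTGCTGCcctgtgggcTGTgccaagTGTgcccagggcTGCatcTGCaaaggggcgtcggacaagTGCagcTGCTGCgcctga
MT1E, MT1F, MT1G, MT1M and MT1X also had 20 cysteine codons of 61. The coding sequences of MT1E and MT1X follow, with capitals at the bases that differ from MT2A.
MT1E: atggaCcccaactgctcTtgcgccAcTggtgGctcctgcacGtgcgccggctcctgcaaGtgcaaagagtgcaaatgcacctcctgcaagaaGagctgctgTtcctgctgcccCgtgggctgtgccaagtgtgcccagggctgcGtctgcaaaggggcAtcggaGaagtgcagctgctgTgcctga
MT1X: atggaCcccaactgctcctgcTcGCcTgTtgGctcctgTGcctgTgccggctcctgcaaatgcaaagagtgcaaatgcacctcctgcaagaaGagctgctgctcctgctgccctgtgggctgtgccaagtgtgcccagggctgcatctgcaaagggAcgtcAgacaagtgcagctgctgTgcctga
Each of these differed from MT2A at 14 of 186 bases (92.5% identity), and MT1G at 9. Because reads of such similar genes can be assigned to the wrong row, windows of the transcripts were compared with all other annotated transcripts. Of the 50-base windows of MT2A 3.02% also occurred in another gene, of those of MT1E 7.1% and of those of MT1G 16.47%; of the 100-base windows of these 3 genes none did. MT1X shared 18.1% of its exon bases with an overlapping gene on the same strand, AC026461.1, which had 0 counts in all 12 libraries, so the level of MT1X is uncertain. SLC30A1 shared no 50-base window with another gene and MTF1 0.89%.

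Total counts ran from 12381071 to 27526206 per library. The library NC-A 1 stood apart, with a score of 65.1 on the first principal component (33.9% of variance) against -42.4 to 20.5 for the other 11 libraries. The mean chi-square per gene between libraries of a group was 1.75 to 4.25, so no pair agreed within sampling noise. Of 28 lens markers, 10 had enough counts for a test. PAX6, a transcription factor of the eye (25.9 CPM, the count scaled to library size, as the mean of 12 libraries), SIX3, another (12.6), and GJA1, a gap junction protein of the epithelium (125), were present, while the lens transcription factors FOXE3 (0.122), PITX3 (0.185) and MAF (0.179) were near 0. HSF4 (1.48) and PROX1 (0.605), also transcription factors of this list, and GJA3 (2.15) and LCTL (2.99) were low but tested. PROX1 had a mean of 0.291 CPM in NC and 1.19 in DHN. Of the genes of the differentiated lens, CRYAA had 5 counts over all libraries, MIP 6, and the gamma crystallins CRYGC and CRYGD 0, whereas BFSP1, a lens filament protein, was at 4.60 CPM and CRYGS at 1.93. CRYAB, a crystallin that is also a stress chaperone, had a mean of 10.8 ± 1.35 CPM in DHN (± SD, n = 3), against 0.704 ± 0.345 for NC, 1.10 ± 0.324 for NC-A and 3.81 ± 0.154 for DHN-A. The summed level of the lens list was 183 to 194 CPM in NC, 177 to 182 in NC-A, 175 to 187 in DHN and 179 to 183 in DHN-A. GJA1 made up most of each sum, at a mean of 135, 129, 112 and 124 CPM in NC, NC-A, DHN and DHN-A. The sum is therefore mostly the level of GJA1 and says little of the other markers. The 10 fibroblast markers, 8 of them tested, summed to 1705 to 1810 CPM in NC, 1499 to 1521 in NC-A, 961 to 1017 in DHN and 1454 to 1518 in DHN-A. In DHN against NC 0 of the 8 rose and 6 fell, where 19.7% of all tested genes were called higher and 19% lower. Most of the sum was COL1A1 (a mean of 1234 CPM in NC and 692 in DHN) and COL6A3 (331 and 140). THY1 was at a mean of 103 CPM in NC and 83.6 in DHN, PDGFRB at 44.3 and 33.2, and FAP at 3.77 and 3.24. DCN (0.032 CPM), LUM (0.128) and PDGFRA (0.252) were near 0 in NC, and PDGFRA had a higher mean, 0.495, in DHN. The sum, mostly of these collagen genes, moved with the groups, and its part in the results below was not tested. The lists of keratinocyte, immune cell and pigment cell markers summed to at most 52.6, 10.3 and 10.8 CPM in any library.

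Among the 8 genes MT2A dominated. Per kilobase of the deposited gene length, the mean level in NC was 211 ± 15.5 CPM per kb for MT2A (mean ± SD, n = 3), which ranked it 115th of 17889 tested genes. MT1E followed at 20.0 ± 0.494 CPM per kb, SLC30A1 at 9.67 ± 0.474, MTF1 at 5.86 ± 0.443, MT1X at 2.01 ± 0.710 and MT1F at 0.133 ± 0.0843. The libraries of neighbours in this order did not overlap. MT1G, at 0.0563 to 0.331 CPM per kb in NC, overlapped MT1F. MT1M had 0 counts in every library, which over 238428004 counts allows a level of up to 0.0126 CPM. Of the 8 genes 6 were tested; MT1G and MT1M did not pass the filter on low counts, and MT1F passed it on 3 libraries, 1 of NC-A and 2 of DHN-A.

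**Figure D2:**
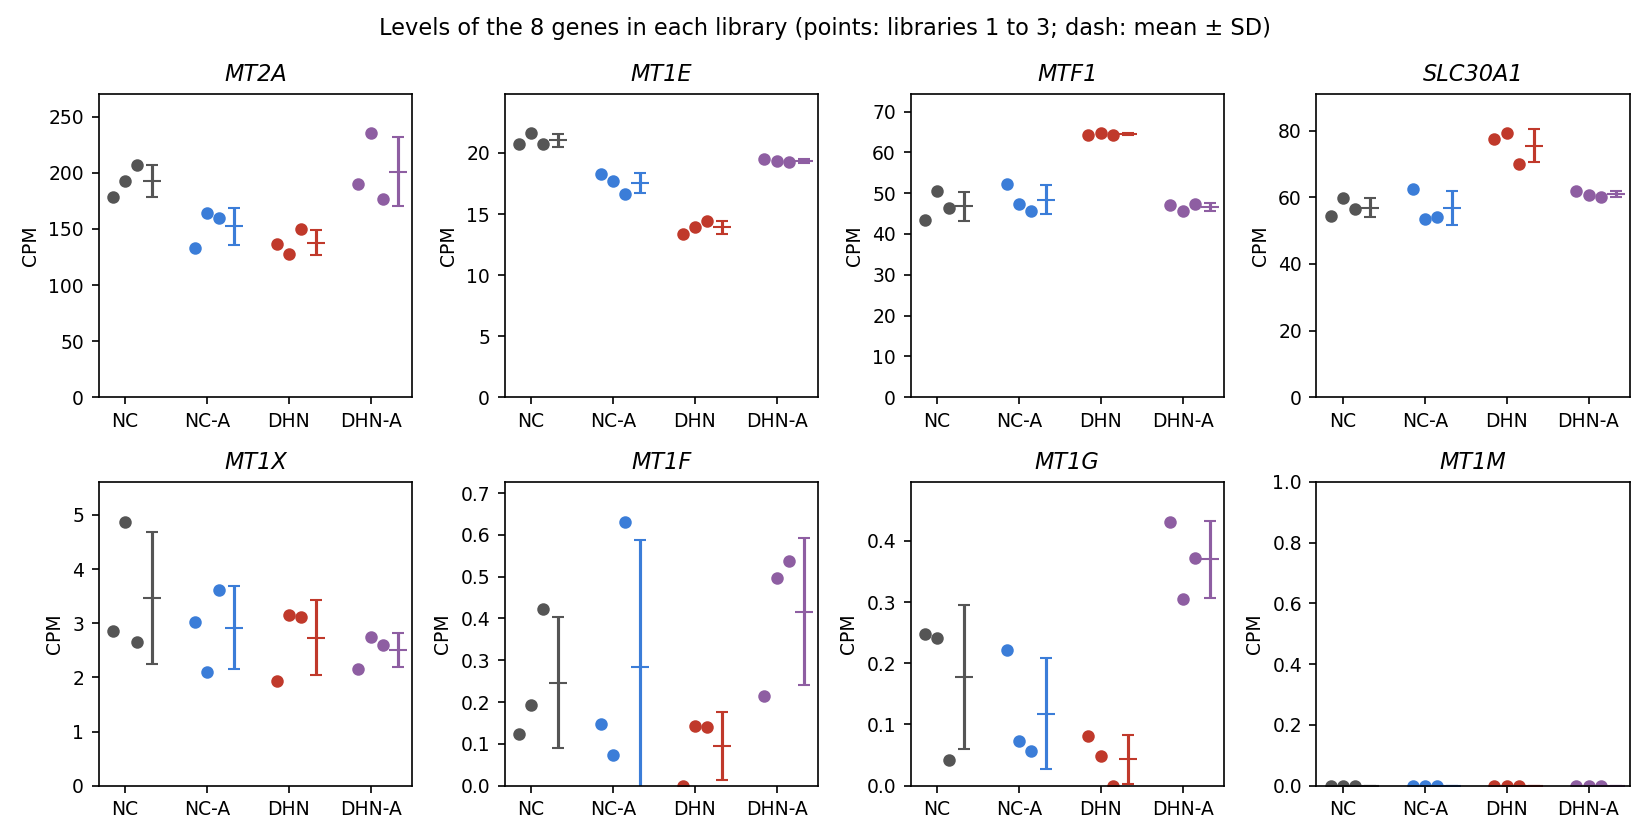
Level in CPM (y axis, from 0) of each of the 8 genes in the 12 libraries by group (x axis); points are libraries 1 to 3 and the dash with bars is the mean ± SD (n = 3). MT2A and MT1E are lower and MTF1 and SLC30A1 higher in DHN than in NC, while MT1M is at 0 throughout.

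DHN against NC asks what 1,2-DHN did without added asparagine. MT2A fell by 28.6% and MT1E, the other abundant metallothionein, fell by 33.6%. The RNA of MTF1, the factor that induces them, rose by 37.5%, and that of the zinc exporter SLC30A1 by 32.3%. Neither the activity of MTF1 nor zinc was measured. MT1X and MT1F were not called. In all, 4 of 6 tested members were called, 2 higher and 2 lower, where 38.7% of all tested genes were called (19.7% higher and 19% lower). As these are bulk samples, fewer cells of a type and less RNA per cell cannot be told apart.

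MT2A, the main metallothionein of most human cells, was at 179, 193 and 207 CPM in NC 1, 2 and 3 and at 136, 128 and 149.6 CPM in DHN 1, 2 and 3. All DHN libraries lay below all NC libraries, and the log2 change was -0.49 ± 0.13 (± SE, as for all log2 changes; edgeR adjusted p = 0.0157). Leaving out NC 3 or DHN 2 ended that call (edgeR adjusted p = 0.0613 and 0.064), with a change of -0.43 and -0.42; over 19 alternatives the adjusted p ran from 1.88e-11 to 0.064. MT1E, a second metallothionein of the cluster, was at 20.8, 21.6 and 20.7 CPM in NC and 13.4, 13.9 and 14.5 CPM in DHN. The groups were far apart relative to their spread (log2 change -0.59 ± 0.084, edgeR adjusted p = 1.06e-07).

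MTF1 was at 43.4, 50.5 and 46.4 CPM in NC and at 64.3, 64.7 and 64.3 CPM in DHN, a log2 change of 0.46 ± 0.058 (edgeR adjusted p = 7.22e-09). The 3 DHN libraries were nearly equal and all above NC. SLC30A1 was at 54.4, 60.0 and 56.5 CPM in NC and at 77.4, 79.3 and 69.9 CPM in DHN, again without overlap (0.40 ± 0.057, edgeR adjusted p = 1.01e-07).

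The scarcer metallothioneins gave less. MT1X was at 2.86, 4.88 and 2.66 CPM in NC and 1.93, 3.15 and 3.11 in DHN, with overlapping groups and a log2 change of -0.31 (95% interval -0.78 to 0.16; edgeR adjusted p = 0.326), and its sign turned without NC 2 (0.0223). MT1F had 2, 4 and 10 counts in NC and 0, 3 and 3 in DHN (edgeR adjusted p = 0.276). MT1G had 4, 5 and 1 counts in NC and 1, 1 and 0 in DHN, a ratio of 0.22 whose counting interval (exact, 95%) of 0.0235 to 1.03 includes 1. That interval covers counting error only.

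DHN-A against DHN asks what asparagine did in cells given 1,2-DHN; it shares the DHN libraries with the comparison above. MT2A and MT1E were higher with asparagine, by 45.6% and 38.6%, while MTF1 fell by 27.6% and SLC30A1 fell by 19.2%. MT1F was called higher at a level of a few counts. In all, 5 of 6 tested members were called, 3 higher and 2 lower, against 41.7% of all tested genes (20.9% higher and 20.8% lower); DESeq2 and limma-voom each called 4, without MT1F. As MT1F entered the test through DHN-A and NC-A libraries, nothing is read from the fifth call.

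MT2A reached 190.3, 235 and 177 CPM in DHN-A 1, 2 and 3, all above the DHN libraries and overlapping NC (log2 change 0.54 ± 0.13, edgeR adjusted p = 0.0081). MT1E was at 19.5, 19.3 and 19.2 CPM in DHN-A, above every DHN library and below every NC library (0.47 ± 0.083 against DHN, edgeR adjusted p = 6.55e-06). MTF1 was at 47.0, 45.6 and 47.5 CPM, within the NC range and below every DHN library (-0.47 ± 0.057, edgeR adjusted p = 3.19e-09). SLC30A1 was at 61.8, 60.8 and 60.1 CPM, below every DHN library and just above the highest NC library at 60.0 (-0.31 ± 0.056 against DHN, edgeR adjusted p = 1.09e-05).

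MT1F had 6, 13 and 13 counts in DHN-A against 0, 3 and 3 in DHN (log2 change 1.88 ± 0.76, edgeR adjusted p = 0.0443). Of the libraries compared here, 2 of DHN-A and 0 of DHN were over the cutoff of the low-count filter, so that MT1F was tested through the group where it was high, together with 1 library of NC-A. The call was lost in 9 of 17 alternatives, namely DESeq2 (adjusted p = 0.0853), limma-voom (adjusted p = 0.0575), edgeR with no filter on low counts (edgeR adjusted p = 0.0702) and edgeR without NC 2, DHN 1, DHN 2, DHN 3, DHN-A 2 or DHN-A 3 (edgeR adjusted p = 0.0528 to 0.151), in a range of 0.0247 to 0.151. MT1G had 12, 8 and 9 counts in DHN-A against 1, 1 and 0 in DHN, 29 against 2 in all, a ratio of 10.2 with a counting interval of 2.58 to 88.1. With no filter on low counts MT1G was called (edgeR adjusted p = 0.0138), and its groups did not overlap. MT1X was at 2.16, 2.75 and 2.60 CPM in DHN-A, inside the DHN range of 1.93 to 3.15 (-0.16, 95% interval -0.64 to 0.31; edgeR adjusted p = 0.612).

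**Figure D3:**
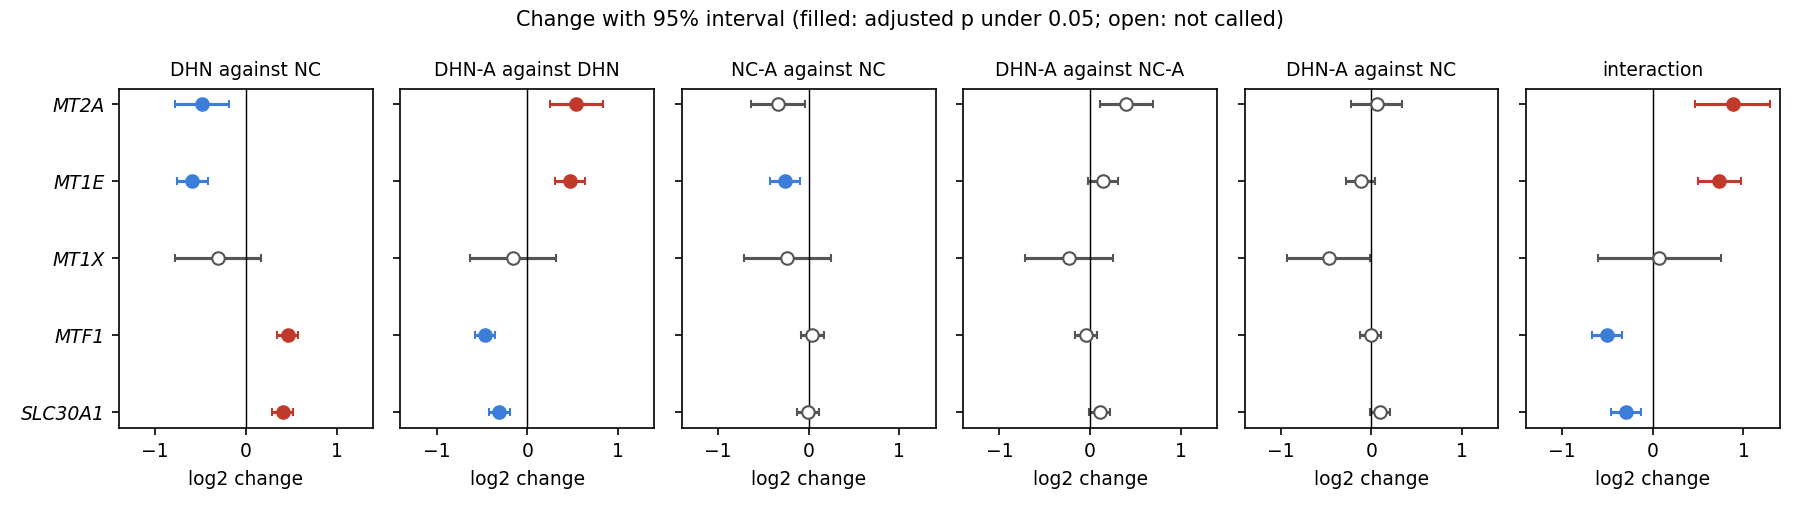
Log2 change (x axis) with its 95% interval for 5 genes (y axis) in the 6 comparisons; filled points passed an adjusted p of 0.05, red for higher and blue for lower, and open points did not; MT1F, with few counts, is left out. MT2A and MT1E lie opposite to MTF1 and SLC30A1 in DHN against NC, in DHN-A against DHN and in the interaction.

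NC-A against NC asks what asparagine did on its own. MT1E fell by 16.7%, to 18.3, 17.7 and 16.7 CPM in NC-A 1, 2 and 3, all below NC (log2 change -0.26 ± 0.083, edgeR adjusted p = 0.019). It was the only called member of 6 tested, where 20.2% of all tested genes were called (9.32% higher and 10.9% lower). The call was lost without NC 2 (edgeR adjusted p = 0.0574) or NC-A 3 (edgeR adjusted p = 0.104), in a range of 0.015 to 0.104 over 19 alternatives. MT2A was at 133, 164 and 159.6 CPM in NC-A, also below every NC library, with a log2 change of -0.34 ± 0.13 that was not called (edgeR adjusted p = 0.107). DESeq2 and limma-voom called it (adjusted p = 0.0301 and 0.00955), as did edgeR without DHN-A 2 (edgeR adjusted p = 0.0429); the range over 19 alternatives was 0.00955 to 0.283. MTF1, at 52.3, 47.2 and 45.5 CPM, and SLC30A1, at 62.6, 53.6 and 54.0 CPM, overlapped NC, with log2 changes of 0.042 (95% interval -0.080 to 0.16) and -0.0099 (-0.13 to 0.11). In both genes NC-A 1 was the highest of the NC-A libraries, and without it MTF1 was at -0.0168. MT1X, at 3.03, 2.11 and 3.62 CPM in NC-A, overlapped NC (-0.24, 95% interval -0.72 to 0.24). MT1F had 2, 1 and 11 counts in NC-A, MT1G had 3, 1 and 1, and both overlapped NC.

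DHN-A against NC-A asks what 1,2-DHN did with asparagine present. By edgeR 0 of 6 tested members were called, where 2.1% of all tested genes were (0.805% higher and 1.29% lower), and 1 (MT2A) had an unadjusted p under 0.05. That share is 375 genes, and the number was 143 without DHN-A 2, 170 without NC-A 3, 226 without NC-A 2 and 230 without DHN-A 1. MT2A was higher in DHN-A than in every NC-A library, at a log2 change of 0.40 ± 0.13 (edgeR adjusted p = 0.215), and both DESeq2 and limma-voom called it (adjusted p = 0.0296 and 0.0216). Leaving out 1 library moved the change to between 0.267 and 0.476, and over 19 alternatives the adjusted p ran from 0.0216 to 0.466. MT1E was at 0.14 (95% interval -0.021 to 0.31), MTF1 at -0.048 (-0.17 to 0.072; 0.0109 without NC-A 1) and SLC30A1 at 0.11 (-0.012 to 0.22). MT1X was at -0.24 (-0.72 to 0.25) and MT1F at 0.42 (-0.89 to 1.74), which leaving out 1 library moved to between 0.0116 (without NC-A 2) and 1.85 (without NC-A 3). MT1G, with 29 counts in DHN-A and 5 in NC-A, had a ratio of 3.32 with a counting interval of 1.27 to 11, and every DHN-A library lay above every NC-A library; with no filter on low counts it was not called (edgeR adjusted p = 0.684).

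The interaction subtracts the log2 change of DHN against NC from that of DHN-A against NC-A, and so tests whether the response to 1,2-DHN differed with asparagine. It was called for 4 of 6 tested members, 2 in each direction, against 25.7% of all tested genes (13.2% higher and 12.5% lower). For MT2A the response was higher by 0.88 ± 0.18 with asparagine (edgeR adjusted p = 0.00681) and for MT1E by 0.74 ± 0.12 (edgeR adjusted p = 2.84e-06). For MTF1 it was lower, by -0.51 ± 0.083 (edgeR adjusted p = 4.58e-06), and for SLC30A1 likewise, by -0.30 ± 0.081 (edgeR adjusted p = 0.00435). MT1X (0.073, 95% interval -0.60 to 0.75) and MT1F (1.65 ± 1.07) were not called; leaving out 1 library moved MT1F to between 0.999 (without NC 3) and 3.08 (without NC-A 3). The 4 calls were also made with NC-A 1 left out and in each of the other 17 fits with the same threshold on the adjusted p.

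DHN-A against NC compares cells given both compounds with cells given neither. By edgeR 0 of 6 tested members were called, against 21.1% of all tested genes (9.83% higher and 11.2% lower); 1 (MT1X) had an unadjusted p under 0.05, and DESeq2 and limma-voom called 0. The log2 change was 0.057 for MT2A (95% interval -0.23 to 0.34), -0.12 for MT1E (-0.28 to 0.037), -0.0062 for MTF1 (-0.12 to 0.11), 0.095 for SLC30A1 (-0.018 to 0.21) and -0.47 for MT1X (-0.93 to -0.015, edgeR adjusted p = 0.141). MT1E lay below NC and SLC30A1 above NC in every library, though neither was called (edgeR adjusted p = 0.303 and 0.246). For SLC30A1 the lowest DHN-A library was at 60.1 CPM and the highest NC library at 60.0. MT2A and MTF1 overlapped NC. MT1F was at 0.65 (-0.62 to 1.92). MT1G, with 29 counts against 10, had a ratio of 2.24 with a counting interval of 1.06 to 5.16, and every DHN-A library lay above every NC library; with no filter on low counts it was not called (edgeR adjusted p = 0.556). These intervals leave room for changes of such sizes, so a p above the threshold does not show equal levels.

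Of 15 other metallothionein genes and pseudogenes 14 were in the table and 1, MT2P1, was tested; it was not called in any comparison by edgeR, DESeq2 or limma-voom (0 with an unadjusted p under 0.05). The sum of the 18 metallothionein 1 and 2 rows does not depend on how reads were divided among them. The NC libraries summed to 204, 220.1 and 232 CPM and the NC-A libraries to 155, 185 and 181 CPM. The DHN libraries summed to 152, 145 and 168 CPM, and the DHN-A libraries to 213, 259 and 200.4 CPM. The DHN libraries all lay below NC and DHN-A, and overlapped NC-A. On the log2 scale the group means differed by -0.49 in DHN against NC and by 0.53 in DHN-A against DHN, close to MT2A, which held 85.8% to 90.9% of the sum in every library. MT1E held 7.47% to 11.7%.

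**Figure D4:**
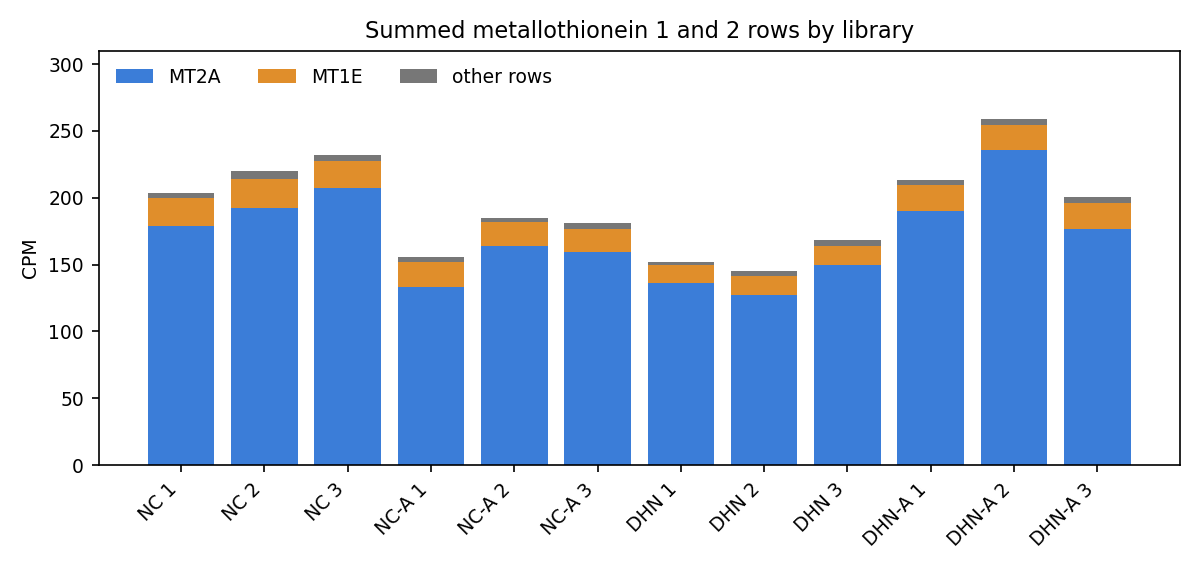
Stacked bars of the CPM (y axis, from 0) of MT2A, MT1E and the 16 other metallothionein 1 and 2 rows in each of the 12 libraries (x axis). The 3 DHN bars stand between 145 and 168 CPM, below all NC and DHN-A bars, and MT2A makes up most of each bar.

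Other genes of zinc handling came from lists of each family, and genes are given as risen or fallen at an edgeR adjusted p under 0.05. Of the 9 other zinc exporters of the SLC30 family 5 were tested, and in DHN against NC 1 rose and 1 fell (median log2 change -0.052, against 0.0073 for all tested genes); 38.7% of all tested genes were called in this comparison. Without NC-A 1, 3 of the 5 were called. SLC30A9, a mitochondrial zinc exporter, fell from 76.7 ± 4.27 to 60.2 ± 4.85 CPM (mean ± SD, n = 3; -0.35 ± 0.055), and SLC30A7, which loads zinc into the secretory pathway, rose from 59.6 ± 4.01 to 68.4 ± 2.47 (0.20 ± 0.053). Of 14 SLC39 importers 11 were tested; 1 rose and 4 fell (median -0.097). SLC39A13, which releases zinc from intracellular vesicles, fell from 51.4 ± 2.76 to 33.6 ± 1.37 CPM (-0.61 ± 0.062). SLC39A11 was at -0.34 ± 0.086 and SLC39A8, a plasma membrane importer of zinc and manganese, at -0.24 ± 0.064, both called lower, and SLC39A6, another plasma membrane importer, rose by 0.15 ± 0.048. SLC30A1 thus had a larger rise than any of these 16 transporters that was called in DHN against NC.

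In DHN-A against DHN 1 of the 5 exporters rose and 1 fell, SLC30A9 by 0.42 ± 0.054 and SLC30A7 by -0.23 ± 0.052, and 4 of the 11 importers rose and 4 fell, where 41.7% of all tested genes were called. SLC39A13 rose by 0.46 ± 0.061, while SLC39A9 (-0.29 ± 0.040), SLC39A6 (-0.32 ± 0.047) and SLC39A7, which releases zinc from the endoplasmic reticulum (-0.28 ± 0.042), fell. In NC-A against NC 1 exporter (SLC30A9, 0.21 ± 0.054) and 1 importer rose and 4 importers fell, where 20.2% of all tested genes were called. The importers called lower with the smallest p were SLC39A7 (-0.27 ± 0.044), SLC39A14, an importer of zinc and iron (-0.20 ± 0.036), and SLC39A9 (-0.19 ± 0.040), and SLC39A10, a plasma membrane importer, rose by 0.30 ± 0.072. In DHN-A against NC-A no transporter of the 2 lists was called (0 of 5 and 0 of 11 by edgeR, and 0 by DESeq2 and limma-voom). As only 2.1% of all tested genes were called there, 0 is near that share and nothing is read from it. By edgeR 1 gene, SLC30A9, had an unadjusted p under 0.05. In DHN-A against NC, where 21.1% of all tested genes were called, 0 of the 5 exporters were called. Of the 11 importers 1 rose and 5 fell. Those with the smallest p were SLC39A14 (-0.23 ± 0.036), SLC39A7 (-0.22 ± 0.042), SLC39A10 (0.35 ± 0.068) and SLC39A8 (-0.31 ± 0.062). The interaction was called for SLC30A9 (0.22 ± 0.076), SLC39A13 (0.49 ± 0.086), SLC39A11 (0.39 ± 0.12) and SLC39A6 (-0.24 ± 0.068), where 25.7% of all tested genes were called. Of the exporters 0 were called in the interaction by limma-voom or by edgeR without NC-A 1, while 3 importers were called in both.

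**Figure D5:**
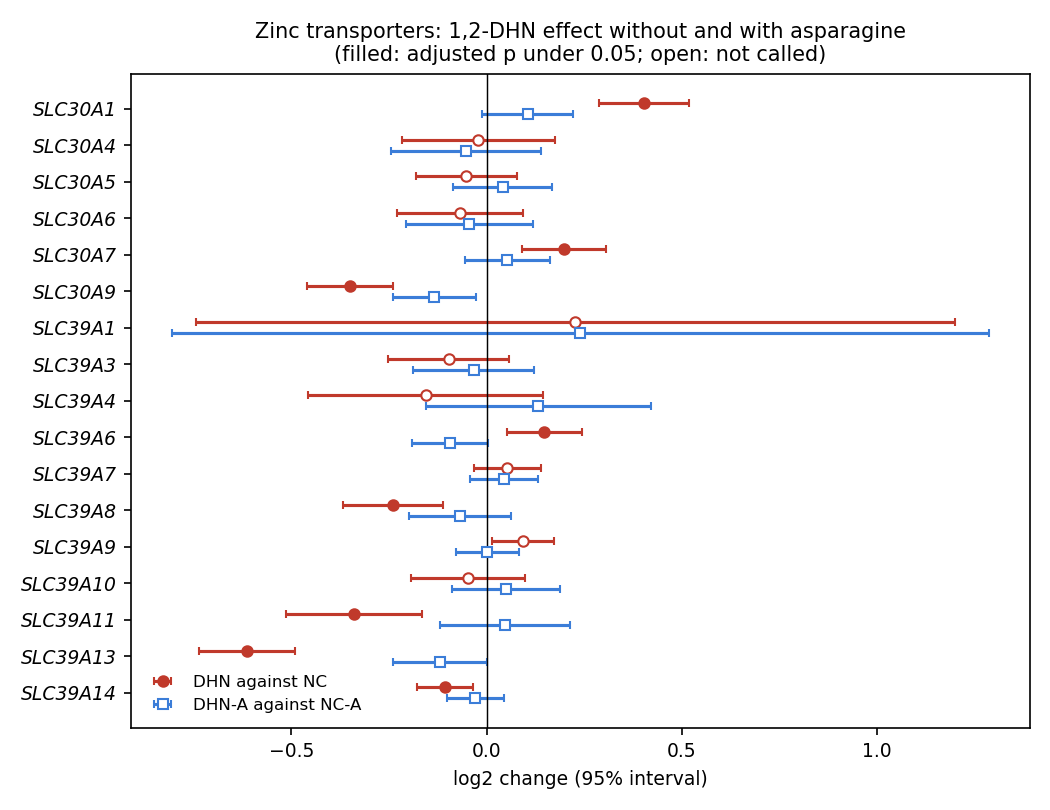
Log2 change with its 95% interval (x axis) of SLC30A1 and the 16 other tested zinc transporters (y axis) for 1,2-DHN without asparagine (DHN against NC, red circles) and with it (DHN-A against NC-A, blue squares), which share no library; filled symbols passed an adjusted p of 0.05. The red circles of SLC30A1 and SLC39A13 lie farthest from 0 among filled symbols, and every blue square is open. Only 2.1% of all tested genes were called in DHN-A against NC-A.

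Of 11 copper-handling genes 10 were tested, and in DHN against NC 2 rose and 1 fell, near the 38.7% called over all tested genes. By limma-voom 4 of the 10 were called, and nothing is read from the count. SOD1, the copper-zinc superoxide dismutase, rose from 441 ± 7.58 to 639 ± 30.1 CPM (0.54 ± 0.040) and CCS, its copper chaperone, by 0.39 ± 0.11, and ATP7B, a copper-exporting ATPase, fell by 0.55 ± 0.11. In DHN-A against DHN 1 rose and 4 fell, beside 41.7% of all tested genes, with SOD1 at -0.79 ± 0.040 and ATP7B at 0.60 ± 0.11. Of 9 other genes linked to MTF1, as targets or partners, all were tested; 4 rose and 3 fell in DHN against NC and 2 rose and 4 fell in DHN-A against DHN, beside the same shares of 38.7% and 41.7% of all tested genes. PGF, placental growth factor, rose by 0.60 ± 0.049 in the first and fell by 1.06 ± 0.049 in the second, and EP300, a coactivator, rose by 0.21 ± 0.038 and fell by 0.33 ± 0.038. NDRG1, a stress gene, fell in both (-0.62 ± 0.045 and -0.32 ± 0.045) and was the single gene of the zinc, copper, MTF1-linked and glucocorticoid lists called by edgeR in DHN-A against NC-A (-0.49 ± 0.046). In that comparison 2.1% of all tested genes were called. In NC-A against NC 20.2% of all tested genes were called. There 1 copper-handling gene rose and 1 fell, and 1 MTF1-linked gene rose and 3 fell. SOD1 (-0.20 ± 0.041), PGF (-0.58 ± 0.053), EP300 (-0.25 ± 0.039) and NDRG1 (-0.45 ± 0.045) fell. In DHN-A against NC 21.1% were called, with 0 copper-handling genes risen and 3 fallen, and 2 MTF1-linked genes risen and 3 fallen. SOD1 (-0.26 ± 0.040), PGF (-0.46 ± 0.050), EP300 (-0.12 ± 0.038) and NDRG1 (-0.93 ± 0.044) were lower.

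Because glucocorticoids also induce metallothioneins, 9 glucocorticoid-responsive genes were read beside them, of which 7 were tested. In DHN against NC 5 rose and 1 fell, with a median of 0.22, where 38.7% of all tested genes were called. In DHN-A against DHN 0 rose and 3 fell by edgeR, with a median of -0.33, and 3 of 7 is near the 41.7% called over all tested genes. PER1, a clock gene, rose by 0.69 ± 0.087 and fell by 0.77 ± 0.085, NR3C1, the glucocorticoid receptor itself, rose by 0.22 ± 0.040 and fell by 0.33 ± 0.040, and TSC22D3 and FKBP5, both receptor targets, rose by 0.45 ± 0.092 and 0.22 ± 0.052. SGK1, a kinase induced by glucocorticoids, rose by 0.21 ± 0.052 and fell by 0.47 ± 0.052. KLF9, a transcription factor and receptor target, fell by 0.28 ± 0.11 in DHN against NC. In DHN-A against DHN FKBP5 was at 0.065 ± 0.050, TSC22D3 at -0.18 ± 0.088 and KLF9 at 0.0084 ± 0.11, none of them called. GLUL was at 0.46 ± 0.26 in DHN against NC, not called. With asparagine alone, in NC-A against NC, TSC22D3 (0.34 ± 0.095) and FKBP5 (0.17 ± 0.053) also rose and KLF9 fell (-0.54 ± 0.12). In DHN-A against NC FKBP5 (0.29 ± 0.050) and TSC22D3 (0.27 ± 0.090) were called higher, and SGK1 (-0.25 ± 0.052) and NR3C1 (-0.12 ± 0.040) lower. Of all tested genes 20.2% and 21.1% were called there.

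Over 12065 other genes whose mean count was 50 or more, those most like MT2A over the 12 libraries, by Pearson's r of log2 CPM, were RTN2 (0.929), PRKACA (0.916), NPDC1 (0.915), MVB12B (0.906) and HMGA1 (0.905). MT1E had r = 0.768 with MT2A, MT1X 0.0618 and MTF1 -0.723. Most like SLC30A1 were ZKSCAN3 (0.97), CSRNP2 (0.962), SLC25A38 (0.961), AIFM2 (0.959) and ASAP1 (0.954), and MTF1 had r = 0.923 with it. These values describe 12 libraries in 4 groups, share the scaling of each library and are the extremes of many genes.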

How the data were processed

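RNA of SRA01/04 cells was sequenced in 12 libraries, with stranded library preparation per the labels' protocols. The authors deposited 1 table of whole-number read counts per gene symbol with a gene length; Bowtie and the build hg38 are named per the submitters' processing notes, while no source used here names the counting tool, its strand setting or the annotation. The deposited length was equal to the exon length in GENCODE release 29 for MT1E and MT1G only, so levels per kilobase depend on it.

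Groups came from the sample labels. Genes were kept by filterByExpr (minimum count 10, 4 groups; 17889 of 60641), scaled by TMM and tested with edgeR 4.0.16 (R 4.3.3) by robust quasi-likelihood over all 12 libraries, with 6 comparisons and Benjamini-Hochberg adjustment over all tested genes within each comparison at 0.05. "Called" means an adjusted p under 0.05. The share of all tested genes whose groups did not overlap was not counted, so the lack of overlap of libraries is given as a description only. CPM is edgeR's scaled count, with the library size multiplied by its TMM factor; 1 count was worth 0.0359 to 0.0806 CPM, and the common biological coefficient of variation was 4.60%. The alternatives tried were DESeq2 1.42.0, limma-voom (limma 3.58.1), relative log expression factors in edgeR, 2 other low-count filters, a replicate block, only the groups compared, a 2-fold threshold and each library left out.

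All 8 members are given, with up to 4 called genes of smallest p per comparison of the zinc transporter lists, and the 5 genes most like MT2A and SLC30A1. Of the copper, MTF1-linked and glucocorticoid lists not every called gene is named, and the interaction is not given for them. The glucocorticoid genes named include more than 4 in DHN against NC and some that were not called. The members and lists were chosen with earlier results of these data known. Same-numbered libraries did not deviate together (1 of 18 correlations over 0.1), so the numbers were not taken to pair samples.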

Additional observations from a re-analysis of the deposited data

Results flagged for a closer look

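For 4 genes the response to 1,2-DHN differed between cells with and without added asparagine by the interaction term of the edgeR fit. The difference on the log2 scale was 0.882 for MT2A (adjusted p = 0.00681), 0.735 for MT1E (adjusted p = 2.84e-06), -0.507 for MTF1 (adjusted p = 4.58e-06) and -0.298 for SLC30A1 (adjusted p = 0.00435). MT2A fell with 1,2-DHN in the cells without asparagine and was at 0.40 with it, and SLC30A1 rose without asparagine and was at 0.11 with it.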

How the results depend on the processing

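Of the member values under the alternatives, 632 kept direction and call, 13 lost the call, 5 gained it and 18 changed sign; the cause was not tested. With a 2-fold threshold the genes called were 635 in DHN against NC, 670 in DHN-A against DHN, 192 in NC-A against NC, 10 in DHN-A against NC-A, 240 for both compounds against NC and 378 in the interaction, and the members called were 0, except 1 (MT1F) in DHN-A against DHN. In NC-A against NC DESeq2 and limma-voom each called 2 members, and each called 1 between DHN-A and NC-A. Leaving out 1 library gave 0 to 2 members in NC-A against NC, and 143 to 426 genes in DHN-A against NC-A (226 without NC-A 2, 170 without NC-A 3, 230 without DHN-A 1, 143 without DHN-A 2), against 375 with all libraries.

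Sign changes were limited to members not called. With each library left out, MT1X ranged from -0.485 to 0.0223 in DHN against NC, from -0.437 to 0.0966 in NC-A against NC and from -0.256 to 0.276 in the interaction. In NC-A against NC MT1F ranged from -1.19 to 0.884 (-0.0398 by limma-voom), MTF1 from -0.0168 to 0.098 and SLC30A1 from -0.0834 to 0.0269. MTF1 ranged from -0.0897 to 0.0109 when DHN-A was compared with NC-A and from -0.0542 to 0.0519 when it was compared with NC, where MT2A ranged from -0.0726 to 0.137.

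With the replicate number as a block, the members called numbered 4 in DHN against NC, 5 in DHN-A against DHN, 1 in NC-A against NC, 0 in DHN-A against NC-A, 0 in DHN-A against NC and 4 in the interaction, as without it; of 12 libraries 3 correlated best with their own number. Relative log expression factors moved the median change by at most -0.00826. A group left with 2 libraries was tested with the spread estimated over all groups. Counts of MT1F and MT1G, at most 13 per library, limit what can be seen of them.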
